A study of Mus musculus with 24 samples.

Results

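The 33 genes described here carry out or control the breakdown of glucose, or are textbook targets of the oxygen-sensitive transcription factor HIF. They were taken by symbol from a table of 55487 mouse genes, and all 33 had a row. Among them 18931 genes passed the filter on low counts, and all 33 members did. By role they comprised 2 glucose transporters, 9 enzymes from hexokinase to the triose phosphates, 6 enzymes from there to pyruvate, 4 genes of lactate formation and transport, 2 regulators of flux, 9 further HIF targets and Hif1a itself.

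The study sorted Lin-Sca1+KIT+ cells (LSK), the fraction of blood-forming tissue that holds stem cells and early progenitors, from control mice or from MLL::ENL Tet-On-ME mice. MLL::ENL is a leukaemia fusion of the chromatin regulator MLL with the elongation factor ENL, here under a tetracycline-controlled switch, and it was induced in the dish during 48 hours of culture. LSK from mice of embryonic day 16 (E16) came from liver, and those of postnatal day 14 (P14) and of age 8 weeks (8wk) came from bone marrow, so that at E16 age and tissue cannot be told apart. Each age had 4 ME libraries and 4 control libraries, named E16_ME, E16_Control, P14_ME, P14_Control, 8wk_ME and 8wk_Control. All 6 groups share the sort and the culture. The promoter that drives the switch, the treatment of control cultures with the inducing agent and the oxygen level of the cultures are not given in the sources used here. Nothing in the labels says whether replicates are separate animals, so p-values measure only the spread between these libraries, which may be technical.

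Glycolysis splits glucose into pyruvate in the cytosol, and lactate dehydrogenase then turns pyruvate into lactate, which leaves the cell through monocarboxylate transporters. HIF is a dimer whose alpha subunit is marked for destruction by prolyl hydroxylases when oxygen is present, so its activity is set by protein stability more than by the level of Hif1a mRNA. When stable, HIF binds short elements with the core ACGTG or GCGTG in the control regions of glycolytic and other genes, and blood stem cells of the marrow are known for a glycolytic metabolism.

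Promoters of the members often held these cores. Promoter sequences from RefSeq (build GRCm38.p6) covered 31 of the 33 members, Slc2a3 and Bnip3l being the other two. In the 250 bases before the start, on either strand, ACGTG stood in at least 1 promoter of 18 of the 31 members (58.1%), against 18.5% of all 27025 genes in the table. GCGTG stood in 21 of the 31 (67.7%), against 30.9% of all genes. Counted per promoter, ACGTG stood in 44.7% of 47 member promoters and 16.6% of all 32851, and GCGTG in 53.2% and 28.2%. Members were taken partly as known HIF targets, so these shares do not test that role. Member promoters were also richer in G and C, with a median of 61.6% against 52.4%, and a match describes the letters only. The lines below show the promoters of 4 members that rose in 8wk_ME cells. They are those of largest change that hold ACGTG in the window before the outermost RefSeq start with at most 30 bases of annotated exon. In the GENCODE annotation Slc16a3 starts at 120948480 and Ankrd37, on the minus strand, at 46005707, so these 2 windows lie inside the annotated gene. Capitals mark ACGTG or its complement, and in Bnip3 the readings on the 2 strands overlap as 1 CACGTG, which is also the E-box of other factors.
Slc16a3, chr11:120948817-120949066, plus strand: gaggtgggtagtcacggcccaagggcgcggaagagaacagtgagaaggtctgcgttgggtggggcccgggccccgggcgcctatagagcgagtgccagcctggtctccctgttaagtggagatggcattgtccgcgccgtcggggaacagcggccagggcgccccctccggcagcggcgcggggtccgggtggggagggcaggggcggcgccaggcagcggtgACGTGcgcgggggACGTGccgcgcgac
Ankrd37, chr8:45999851-46000100, minus strand: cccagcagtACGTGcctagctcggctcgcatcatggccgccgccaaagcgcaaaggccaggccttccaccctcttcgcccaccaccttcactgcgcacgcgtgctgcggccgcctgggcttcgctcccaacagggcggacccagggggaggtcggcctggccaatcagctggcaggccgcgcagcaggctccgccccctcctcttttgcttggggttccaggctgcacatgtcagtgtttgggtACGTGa
Bnip3, chr7:138909507-138909756, minus strand: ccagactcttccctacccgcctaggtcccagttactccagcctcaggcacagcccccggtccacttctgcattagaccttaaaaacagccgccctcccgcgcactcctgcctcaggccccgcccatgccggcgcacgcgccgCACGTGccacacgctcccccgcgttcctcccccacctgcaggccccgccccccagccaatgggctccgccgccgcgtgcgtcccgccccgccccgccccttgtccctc
P4ha1, chr10:59323046-59323295, plus strand: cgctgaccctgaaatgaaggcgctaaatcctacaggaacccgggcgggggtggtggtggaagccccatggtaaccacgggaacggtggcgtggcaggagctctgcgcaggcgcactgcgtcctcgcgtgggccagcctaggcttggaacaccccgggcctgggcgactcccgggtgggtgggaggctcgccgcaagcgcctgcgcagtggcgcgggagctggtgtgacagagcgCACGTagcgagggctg

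Libraries held 33.9 to 69.3 M counts. Of the genes behind the LSK label, Kit, the stem cell factor receptor, stood at group means of 465 to 1463 CPM (counts scaled to a common library size). Ly6a, the gene of Sca1, stood at 530 and 660 CPM in E16_ME and E16_Control, at 113 and 85.5 CPM at P14 and at 292 and 140 CPM at 8wk. Kit was at 1463 CPM in 8wk_ME and at 487 CPM in 8wk_Control. Against the lineage-negative part of the label, 10 neutrophil markers summed to a mean of 2658 CPM in E16_Control, with S100a8 at 943 CPM, to 726 CPM in E16_ME and to 946 CPM in 8wk_ME, and 9 erythroid markers summed to 347 to 1257 CPM in the E16 libraries. Hepatocyte markers summed to 5.26 to 27.0 CPM over all libraries, with Alb at or near 0, and stromal and endothelial markers to 33.6 to 91.2 CPM. Nearly all of the hepatocyte sum was Afp, with means of 6.03 CPM in E16_ME and 20.5 CPM in 8wk_Control. Most of the stromal and endothelial sum was Pecam1, at group means of 40.9 to 67.0 CPM, with Col1a1, Cxcl12 and Pdgfra near 0. Annotated pseudogenes held 4.03% of the CPM of Ldhb, 3.98% of Bnip3l and 3.86% of Pgam1 over all libraries. In single libraries they reached 5.78%, 5.43% and 4.7%, and reads of these genes may be split with them. The counting's strand setting is not given in the sources used here, so reads of Pfkp, Pfkm, Aldoa, Tpi1, Gapdh, Gpi1, Slc2a1, Hk1, Bnip3, Higd1a and Ankrd37 and of genes that overlap their exons on the other strand cannot be told apart. E16_ME replicate 4, 8wk_ME replicate 4 and 8wk_Control replicate 1 stood apart from the rest of their groups on the first principal component of all genes, by a gap chosen after the data were seen, and key values are also given without these 3 libraries.

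At E16 and at P14 10 of the 15 glycolytic enzyme genes fell in ME cells, and at 8wk none of the 15 fell. A gene was called where the adjusted p (edgeR's quasi-likelihood test over all genes, Benjamini-Hochberg) was under 0.05. At E16 14 of the 33 members fell and 2 rose, against 8.47% and 13.3% of all genes tested. At P14 14 members fell and 1 rose, against 9.35% and 12.7% of all genes. The 14 that fell were the same genes at both ages: Slc2a3, Hk2, Gpi1, Pfkp, Aldoa, Tpi1, Gapdh, Pgk1, Pgam1, Eno1, Pkm, Ldha, Slc16a1 and Egln3. At 8wk 15 members rose and 3 fell, against 14.2% and 14.3% of all genes. Of the 14 genes lower at E16 and P14, 2 fell at 8wk too (Slc2a3 and Slc16a1), 4 rose (Gpi1, Aldoa, Eno1 and Egln3) and 8 were not called. The median change of the members was -0.39 log2 at E16, -0.28 at P14 and 0.29 at 8wk, beside medians over all genes of 0.02, 0.03 and -0.02. Without the 3 libraries that stand apart, 14 members fell and 0 rose at E16, where Aldoc (adjusted p = 0.0667) and Hif1a (0.0863) lost their calls, 14 fell and 2 rose at P14, and 3 fell and 14 rose at 8wk. In a fit of the 8wk libraries alone, 8 members rose and 2 fell.

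**Figure D1:**
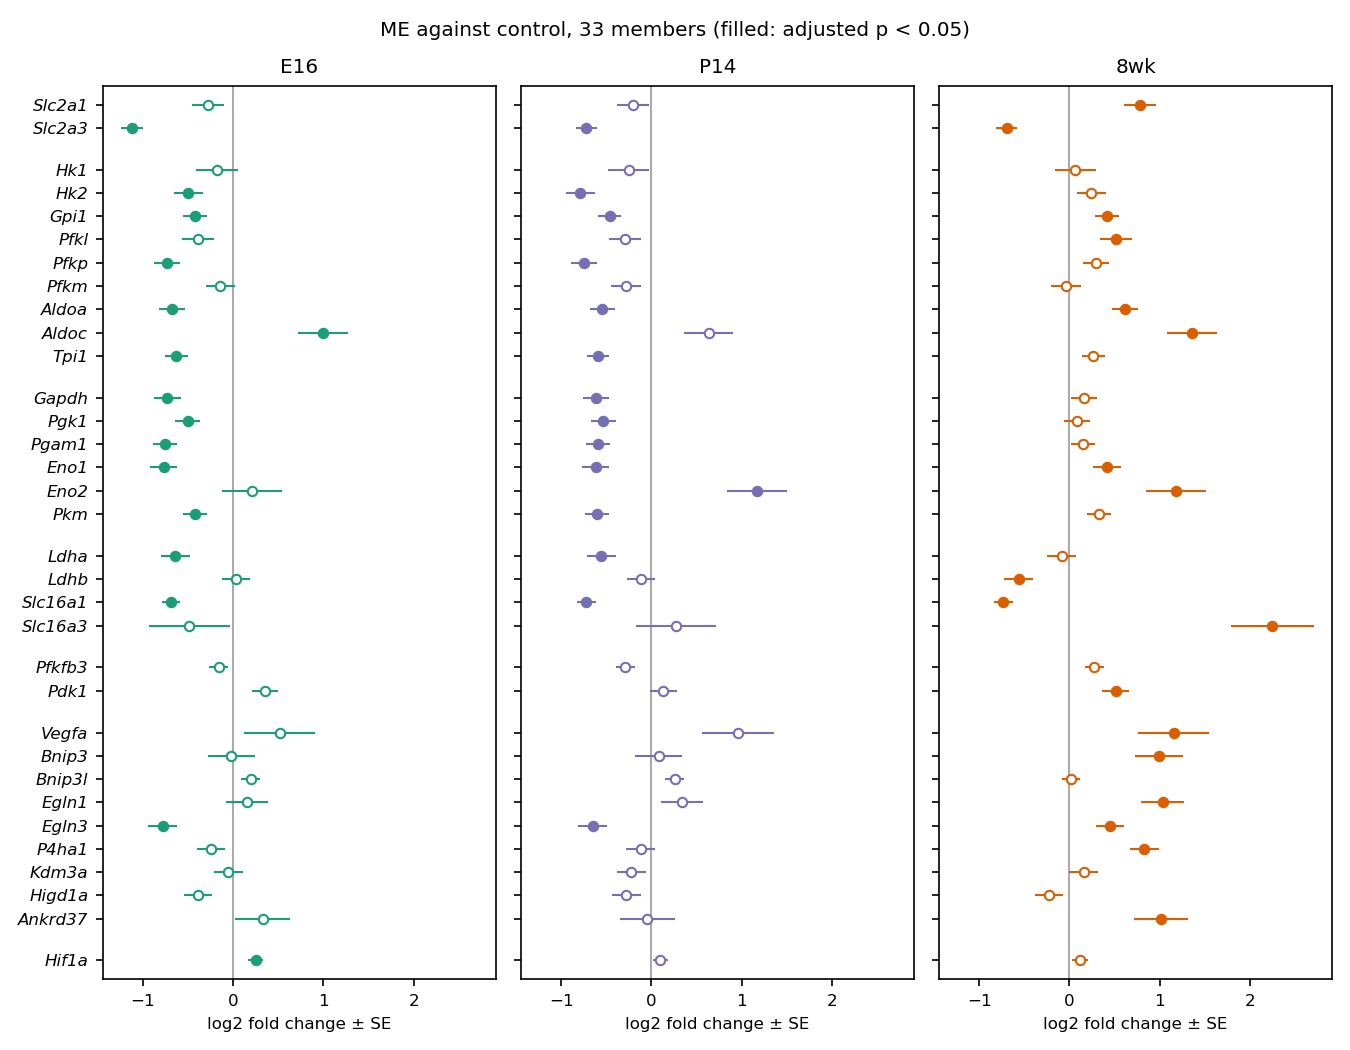
Log2 fold change of ME against control with its SE (x axis) for the 33 members (y axis, grouped by role) at E16, P14 and 8wk, with filled points for adjusted p under 0.05. The enzymes from Gpi1 to Ldha lie mostly left of 0 at E16 and P14 and mostly right of 0 at 8wk, while Slc2a3 and Slc16a1 lie left of 0 at all 3 ages and Slc16a3 stands at 2.25 at 8wk.

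Of the glucose transporters, Slc2a3 (GLUT3, the high-affinity form) fell at every age. At E16 it stood at 79.7, 83.0, 94.2 and 104 CPM in the ME libraries and at 202, 166, 216 and 204 CPM in the controls. The groups were far apart, a change of -1.12 ± 0.12 log2 (SE, n = 4 per group; edgeR adjusted p = 1.45e-06). At P14 the ME libraries held 143, 146, 131 and 116 CPM and the controls 226, 238, 203 and 217 CPM (-0.72 ± 0.12 log2, edgeR adjusted p = 1.58e-04). At 8wk the ME libraries held 157, 167, 135 and 189 CPM and the controls 261, 253, 221 and 314 CPM (-0.70 ± 0.12 log2, edgeR adjusted p = 2.34e-04). Every control lay above every ME library of its age. Slc2a1 (GLUT1, the widespread basal transporter) was not called at E16 (-0.28 ± 0.18 log2) or P14 (-0.21 ± 0.18 log2). At 8wk Slc2a1 rose by 0.78 ± 0.18 log2 (edgeR adjusted p = 0.00280), with 259, 185, 113 and 116 CPM in ME and 92.6, 89.9, 86.7 and 123 CPM in control. Replicates 1 and 2 of 8wk_ME lay above all controls, and replicates 3 and 4 lay below the highest control. Without 8wk_ME replicate 1 the change of Slc2a1 was 0.49 log2 (edgeR adjusted p = 0.0146). In a fit of the 8wk libraries alone, Slc2a1 had an edgeR adjusted p of 0.0559.

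From hexokinase to the triose phosphates 5 of 9 enzyme genes fell at E16 and the same 5 fell at P14: Hk2, Gpi1, Pfkp, Aldoa and Tpi1. Hk2 encodes the inducible hexokinase that traps glucose in the cell. At P14 it held 33.3, 35.2, 34.5 and 28.6 CPM in ME and 55.2, 50.4, 66.5 and 54.9 CPM in control, without overlap (-0.79 ± 0.16 log2, edgeR adjusted p = 0.00104). At E16 the change of Hk2 was -0.50 ± 0.16 log2 (edgeR adjusted p = 0.0279), and at 8wk it was 0.24 ± 0.16 log2 and not called. Pfkp encodes the platelet-type phosphofructokinase of the committing step. At P14 its ME libraries held 112, 106, 93.2 and 78.0 CPM and its controls 161, 159, 170 and 163 CPM (-0.75 ± 0.14 log2, edgeR adjusted p = 6.47e-04). At E16 Pfkp changed by almost the same amount, -0.74 ± 0.14 log2 (edgeR adjusted p = 8.62e-04), and at 8wk it was not called (0.29 ± 0.14 log2).

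Aldoa, the main aldolase, turned over between ages. Its means in ME and control were 806 and 1288 CPM at E16 and 807 and 1174 CPM at P14, falls of 0.68 and 0.54 log2 (edgeR adjusted p = 0.00158 and 0.00799). At 8wk its ME libraries held 2412, 1953, 1525 and 1257 CPM and its controls 1308, 955, 1080 and 1315 CPM. Aldoa rose there by 0.62 ± 0.14 log2 (edgeR adjusted p = 0.00264), although replicate 4 of ME lay inside the control range. Gpi1, which interconverts glucose and fructose phosphates, changed by -0.42 ± 0.13, -0.46 ± 0.13 and 0.42 ± 0.13 log2 at E16, P14 and 8wk (edgeR adjusted p = 0.0248, 0.0140 and 0.0210). Tpi1, triose phosphate isomerase, changed by -0.63 ± 0.12 and -0.59 ± 0.12 log2 at E16 and P14 and was not called at 8wk (0.27 ± 0.12 log2).

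Aldoc, the aldolase best known from brain, held 9.50, 9.23, 10.4 and 27.8 CPM in E16_ME and 6.04, 5.60, 8.63 and 8.26 CPM in E16_Control. Its call at E16 (1.00 ± 0.28 log2, edgeR adjusted p = 0.0141) leaned on replicate 4, the library that stands apart, without which the change was 0.45 log2 (adjusted p = 0.122). The call was also lost without E16_Control replicate 2 (0.0510), by limma-voom (0.0684) and in a fit of the E16 libraries alone (0.0814). At P14 Aldoc had a change of 0.63 ± 0.27 log2 and was not called (edgeR adjusted p = 0.103), although its ME libraries (58.5 to 67.9 CPM) all lay above its controls (36.1 to 49.6 CPM). In a fit of the P14 libraries alone the edgeR adjusted p of Aldoc was 0.00405, and 0.00645 with a replicate block added. The block treats same-numbered libraries as pairs, which no label states. With the block in the fit of all libraries the adjusted p of Aldoc was 0.0991. At 8wk Aldoc rose by 1.35 ± 0.28 log2 (edgeR adjusted p = 0.00113), with 161, 151, 101 and 105 CPM in ME and 67.5, 40.3, 44.7 and 50.2 CPM in control. Hk1, Pfkl and Pfkm were not called at E16 or P14, with changes between -0.39 and -0.14 log2. Pfkl, the liver-type phosphofructokinase, rose at 8wk by 0.51 ± 0.18 log2 (edgeR adjusted p = 0.0329).

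Several of these calls near the threshold were lost on leaving out some of the single libraries. At E16 the adjusted p of Hk2 was 0.0783 to 0.100, and that of Gpi1 0.0638 to 0.0780, on leaving out any 1 of E16_ME replicates 1 and 2 and E16_Control replicates 1 and 2, for Gpi1 also E16_ME replicate 4. At P14 that of Gpi1 was 0.0545 to 0.0612 without P14_ME replicate 4 or P14_Control replicate 3. At 8wk Gpi1 (0.0540 to 0.0865) and Pfkl (0.0845 to 0.116) lost their calls without 8wk_ME replicate 1 or 2 or 8wk_Control replicate 2 or 3, and in a fit of the 8wk libraries alone (0.0660 and 0.0885), Pfkl also with no filter on low counts (0.0679). Scaling by library size alone ended the E16 calls of Hk2 (0.0695) and Gpi1 (0.0624), and a fit of the E16 libraries alone that of Hk2 (0.0687). The calls of Aldoa, Tpi1 and Pfkp within these ages, and of Aldoc at 8wk, were kept on leaving out each library in turn.

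From the triose phosphates to pyruvate, 5 of 6 genes fell at E16 and 5 of 6 at P14, again the same genes. Gapdh, the dehydrogenase that follows, held 1468, 1458, 1957 and 1435 CPM in E16_ME and 2848, 2961, 2390 and 2266 CPM in E16_Control (-0.73 ± 0.14 log2, edgeR adjusted p = 9.64e-04). At P14 it held 2127, 1764, 1626 and 1484 CPM in ME and 2453, 2285, 3135 and 2846 CPM in control (-0.61 ± 0.14 log2, edgeR adjusted p = 0.00363). Neither pair of groups overlapped. At 8wk Gapdh was not called (0.16 ± 0.14 log2), and the groups overlapped.

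Pgk1, phosphoglycerate kinase and a textbook HIF target, followed the same course. It held 447, 412, 454 and 389 CPM in E16_ME and 594, 629, 613 and 580 CPM in E16_Control (-0.51 ± 0.14 log2, edgeR adjusted p = 0.0121). It held 498, 491, 460 and 433 CPM in P14_ME and 608, 687, 646 and 777 CPM in P14_Control (-0.53 ± 0.14 log2, edgeR adjusted p = 0.00877). In 8wk_ME it held 1251, 955, 784 and 679 CPM and in 8wk_Control 696, 785, 1018 and 968 CPM, a difference of 0.08 ± 0.14 log2 that was not called. Replicate 1 of 8wk_ME was above every control and replicate 4 was below every control.

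Eno1, the main enolase, held 961, 1033, 1231 and 949 CPM in E16_ME and 1909, 1920, 1669 and 1623 CPM in E16_Control, without overlap (-0.77 ± 0.15 log2, edgeR adjusted p = 9.13e-04). At P14 Eno1 fell by 0.62 ± 0.15 log2 (edgeR adjusted p = 0.00522). At 8wk it rose by 0.41 ± 0.15 log2 (edgeR adjusted p = 0.0431), a call lost (0.108 to 0.193) without 8wk_ME replicate 1 or 2 or 8wk_Control replicate 2 or 3. It was also lost with GC correction (0.23 log2, adjusted p = 0.140), with no filter on low counts (0.0699), with the replicate block (0.0537) and in a fit of the 8wk libraries alone (0.115), and without 8wk_ME replicate 1 the change of Eno1 was 0.27 log2. A retrotransposed copy, Eno1b, is annotated as a coding gene, and reads of Eno1 may be split with it. Pgam1, phosphoglycerate mutase, fell by 0.75 ± 0.13 log2 at E16 and by 0.59 ± 0.13 log2 at P14 (edgeR adjusted p = 3.19e-04 and 0.00240). Pkm, pyruvate kinase of the last step, fell by 0.43 ± 0.13 and 0.60 ± 0.13 log2 (edgeR adjusted p = 0.0257 and 0.00235). The E16 call of Pkm was lost (0.0672 to 0.0918) without E16_ME replicate 1 or 2 or E16_Control replicate 1 or 2, and when scaled by library size alone (0.0728). Neither Pgam1 (0.15 ± 0.13 log2) nor Pkm (0.32 ± 0.13 log2) was called at 8wk. Eno2, the neuronal enolase, was scarce, at 0.421 to 2.86 CPM. It rose at P14 by 1.17 ± 0.33 and at 8wk by 1.18 ± 0.33 log2 (edgeR adjusted p = 0.0133 and 0.0107), and its P14 call was lost (0.0517) without P14_Control replicate 3.

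Summed over the 15 enzyme genes from hexokinase to pyruvate kinase, the level was 6247, 6448, 7935 and 6849 CPM in E16_ME and 11114, 11314, 9871 and 9526 CPM in E16_Control. It was 8643, 7684, 7498 and 6842 CPM in P14_ME and 10041, 9982, 13228 and 11888 CPM in P14_Control. At both ages all ME libraries lay below all controls. In 8wk_ME the sum was 16336, 13925, 12303 and 11025 CPM, and in 8wk_Control it was 10939, 9443, 9649 and 12786 CPM. There ME replicates 1 and 2 lay above all controls and replicates 3 and 4 lay inside the control range.

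**Figure D2:**
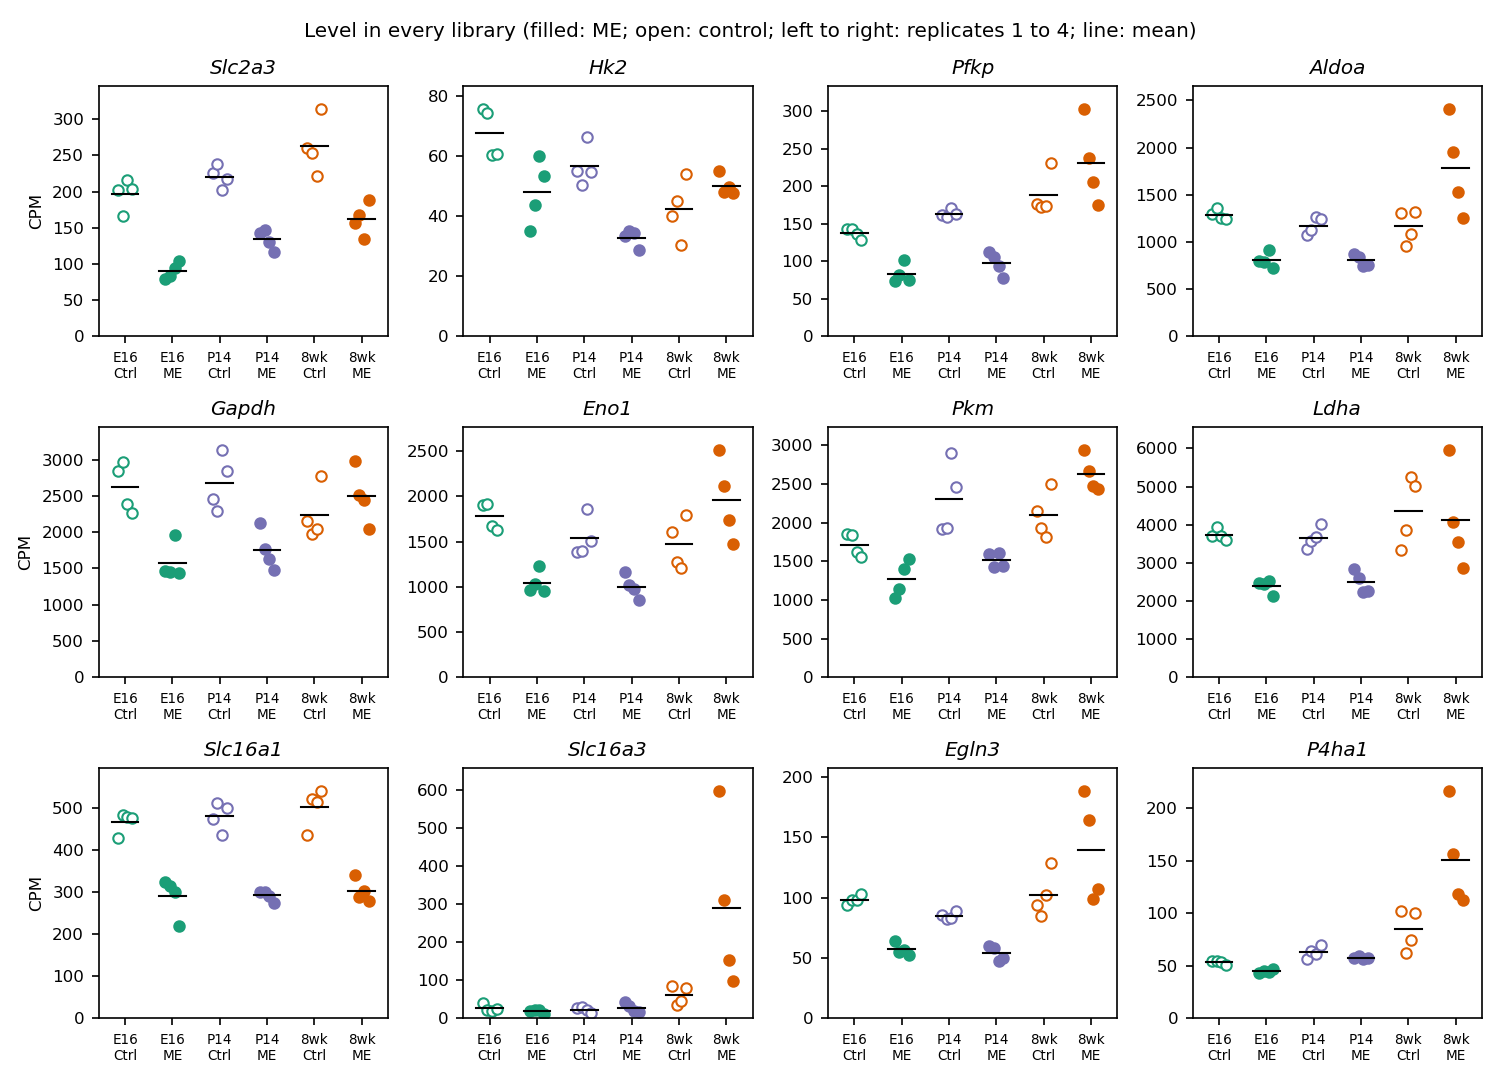
Level of 12 members (y axis, CPM, from 0) in every library of the 6 groups (x axis), with open points for control, filled points for ME and a line at the mean of 4 libraries. The ME points of Gapdh, Eno1 and Ldha lie below the control points at E16 and P14 and overlap them at 8wk, where replicate 1 is the highest ME library and replicate 4 is low; Slc16a1 is lower in ME at all 3 ages.

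Ldha mRNA fell at E16 and P14, as did most of the enzyme genes, and was not called at 8wk, where Ldhb fell. The export genes parted, and lactate itself was not measured. Ldha, the enzyme that makes lactate, had the highest level per kb of exon of the 33 members in each group. It held 2460, 2454, 2525 and 2138 CPM in E16_ME and 3705, 3946, 3704 and 3601 CPM in E16_Control (-0.64 ± 0.16 log2, edgeR adjusted p = 0.00613). At P14 Ldha fell by 0.56 ± 0.16 log2 (edgeR adjusted p = 0.0153, and 0.0512 without P14_Control replicate 4). At 8wk its ME libraries spread from 2860 to 5966 CPM around a control range of 3341 to 5248 CPM (-0.09 ± 0.16 log2, not called). Ldhb, which favours the reverse reaction, was not called at E16 (0.03 ± 0.16 log2) or P14 (-0.11 ± 0.16 log2). At 8wk Ldhb fell by 0.56 ± 0.16 log2 (edgeR adjusted p = 0.0110, 0.0987 without 8wk_Control replicate 3 and 0.0869 in a fit of the 8wk libraries alone).

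Slc16a1 (MCT1, a transporter of lactate and pyruvate) fell by nearly the same amount at each age. At P14 it held 300.4, 300.4, 291 and 274 CPM in ME and 473, 511, 435 and 500.3 CPM in control (-0.72 ± 0.10 log2, edgeR adjusted p = 2.63e-05). The changes at E16 and 8wk were -0.69 ± 0.10 and -0.73 ± 0.10 log2 (edgeR adjusted p = 5.02e-05 and 2.68e-05), and ME and control did not overlap at any age. The 3 differences between ages lay between -0.04 and -0.01 log2, each with an SE of 0.14. Slc16a3 (MCT4, the lactate exporter of glycolytic cells and a HIF target) behaved otherwise. In 8wk_ME it held 598, 311, 153 and 97.9 CPM and in 8wk_Control 84.3, 34.6, 46.0 and 79.3 CPM. It rose by 2.25 ± 0.46 log2 (edgeR adjusted p = 0.00135), and every ME library was above every control although the ME libraries differed widely among themselves. Without 8wk_ME replicate 1 the change of Slc16a3 was 1.62 log2. At E16 Slc16a3 changed by -0.49 ± 0.45 log2 and at P14 by 0.27 ± 0.45 log2, neither called, at levels of 12.2 to 43.1 CPM.

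Of the 2 flux regulators, Pdk1, which holds pyruvate back from the mitochondrion, rose at 8wk by 0.51 ± 0.15 log2 (edgeR adjusted p = 0.0121). Its ME libraries (341 to 418 CPM) all lay above its controls (241 to 340 CPM). Pdk1 was not called at E16 (0.35 ± 0.15 log2) or P14 (0.13 ± 0.15 log2). Pfkfb3, which makes the activator of phosphofructokinase, was not called at E16 (-0.16 ± 0.11 log2), P14 (-0.29 ± 0.11 log2) or 8wk (0.28 ± 0.11 log2). Its P14_ME libraries (26.6 to 31.3 CPM) nevertheless lay below its P14 controls (31.6 to 38.5 CPM), and its 8wk_ME libraries (30.4 to 33.4 CPM) lay above its 8wk controls (23.8 to 28.9 CPM).

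Among the 9 further HIF targets 1 fell at E16 and at P14, and 6 rose at 8wk. The one that fell was Egln3, a prolyl hydroxylase that marks HIF for destruction and is itself a HIF target. It held 64.5, 55.2, 56.2 and 52.7 CPM in E16_ME and 94.3, 98.1, 97.7 and 103 CPM in E16_Control (-0.78 ± 0.16 log2, edgeR adjusted p = 0.00111). At P14 Egln3 fell by 0.65 ± 0.16 log2 (edgeR adjusted p = 0.00452), and at 8wk it rose by 0.45 ± 0.16 log2 (edgeR adjusted p = 0.0358). The rise was lost (0.0721 to 0.190) without 8wk_ME replicate 1 or 2 or 8wk_Control replicate 1 or 2, by limma-voom (0.0547) and in a fit of the 8wk libraries alone (0.141), and without 8wk_ME replicate 1 the change of Egln3 was 0.27 log2. Egln1, the main oxygen-sensing hydroxylase, held 19.8, 14.7, 9.37 and 8.90 CPM in 8wk_ME and 8.01, 4.61, 5.38 and 7.77 CPM in 8wk_Control. It rose by 1.03 ± 0.24 log2 (edgeR adjusted p = 0.00253) with no overlap, and was not called at E16 (0.16 ± 0.23 log2) or P14 (0.34 ± 0.23 log2).

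Vegfa, the vascular growth factor, held 35.9, 25.5, 21.6 and 12.0 CPM in 8wk_ME and 16.9, 9.75, 7.59 and 8.35 CPM in 8wk_Control. Its rise of 1.15 ± 0.40 log2 (edgeR adjusted p = 0.0331) was lost (0.0504 to 0.119) without any 1 of 8wk_ME replicates 1, 2 and 3 and 8wk_Control replicates 2, 3 and 4, and with no filter on low counts (0.0962). At P14 Vegfa had a change of 0.96 ± 0.40 log2, not called (edgeR adjusted p = 0.0878), and a fit of the P14 libraries alone gave 0.97 log2 (adjusted p = 0.0325). With the replicate block Vegfa changed by 1.06 log2 in the P14 libraries alone (adjusted p = 0.00473) and by 1.07 log2 in the fit of all libraries (0.00522). Bnip3, a mitophagy receptor, held 185, 146, 68.5 and 59.6 CPM in 8wk_ME and 54.1, 39.0, 72.3 and 65.0 CPM in 8wk_Control. It rose by 0.99 ± 0.26 log2 (edgeR adjusted p = 0.00731; 0.0810 in a fit of the 8wk libraries alone), with ME replicates 3 and 4 inside the control range. Its relative Bnip3l was not called at any age. At P14 its adjusted p was 0.0763, and it was 0.0491 in a fit of the P14 libraries alone, 0.0487 in that fit with the replicate block and 0.0616 with the block in the fit of all libraries.

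P4ha1, a collagen prolyl hydroxylase, rose at 8wk by 0.83 ± 0.16 log2 (edgeR adjusted p = 6.30e-04), with 217, 157, 118 and 113 CPM in ME and 102, 62.6, 74.9 and 100.2 CPM in control. All ME libraries lay above all controls. Ankrd37, an ankyrin repeat protein of the HIF response, rose at 8wk by 1.02 ± 0.30 log2 (edgeR adjusted p = 0.0141), with 7.01 to 22.7 CPM in ME and 4.60 to 12.9 CPM in control. That call was lost (0.0555 to 0.0650) without 8wk_ME replicate 2 or 8wk_Control replicate 2, without the 3 libraries that stand apart (0.0557) and in a fit of the 8wk libraries alone (0.0916). Kdm3a, a histone demethylase, and Higd1a, a mitochondrial protein, were not called at any age, with changes from -0.39 to 0.16 log2.

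Hif1a mRNA moved little. It held 170, 185, 172 and 185 CPM in E16_ME and 154, 153, 151 and 140 CPM in E16_Control, without overlap, a rise of 0.25 ± 0.08 log2 (edgeR adjusted p = 0.0360). The call was lost (0.0532 to 0.123) on leaving out 6 of the 8 libraries in turn, the exceptions being E16_ME replicates 1 and 3, and also with no filter on low counts (0.157), with GC correction (0.0609) and without the 3 libraries that stand apart (0.0863). At P14 Hif1a held 127, 144, 166 and 160 CPM in ME and 140, 146, 137 and 136 CPM in control (0.10 ± 0.08 log2, not called). At 8wk it held 146, 130, 144 and 137 CPM in ME and 131, 140, 133 and 111 CPM in control (0.12 ± 0.08 log2, not called). Hif1a shares exon bases with Gm15283 on the other strand, and reads of the pair cannot be told apart if the counting ignored strand.

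The difference between ages in the ME effect was then tested directly, as the interaction of ME with age. Between E16 and P14 no member was called in either direction (edgeR, adjusted p under 0.05), 1 member had an unadjusted p under 0.05, and DESeq2 and limma-voom also called none. Over all genes 0.0158% were called higher and 0.00528% lower. Between P14 and 8wk 8 members were called, all with a higher ME effect at 8wk, against 0.195% of all genes higher and 0.106% lower. Between E16 and 8wk 11 members were called, again all higher, against 0.460% of all genes higher and 0.391% lower. Medians of the members were 0.07, 0.72 and 0.74 log2, beside medians over all genes of 0.00, -0.08 and -0.07. These 3 differences share libraries with one another and with the tests within each age.

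Aldoa differed most firmly, by 1.29 ± 0.20 log2 between E16 and 8wk (edgeR adjusted p = 0.00321) and by 1.16 ± 0.20 log2 between P14 and 8wk (edgeR adjusted p = 0.0213). Eno1 differed by 1.19 ± 0.21 and 1.03 ± 0.21 log2 (edgeR adjusted p = 0.00898 and 0.0376), and Egln3 by 1.23 ± 0.22 and 1.10 ± 0.22 log2 (edgeR adjusted p = 0.00898 and 0.0376). Pfkp differed by 1.03 ± 0.20 and 1.04 ± 0.20 log2, Tpi1 by 0.90 ± 0.18 and 0.85 ± 0.18 log2, and Gpi1 by 0.84 ± 0.19 and 0.88 ± 0.19 log2. Their edgeR adjusted p were 0.0170 and 0.0376 for Pfkp, 0.0169 and 0.0376 for Tpi1 and 0.0310 and 0.0381 for Gpi1. These 6 genes were called in both differences. Hk2 (1.03 ± 0.22 log2) and Pkm (0.93 ± 0.19 log2) were called only against P14 (edgeR adjusted p = 0.0460 and 0.0376). The call of Hk2 was lost with the replicate block (edgeR adjusted p = 0.0665). Slc16a3 (2.74 ± 0.64 log2), P4ha1 (1.08 ± 0.23 log2), Slc2a1 (1.06 ± 0.25 log2), Pgam1 (0.90 ± 0.19 log2) and Gapdh (0.89 ± 0.20 log2) were called only against E16, with edgeR adjusted p of 0.0451, 0.0225, 0.0450, 0.0217 and 0.0360. In the difference between E16 and P14 themselves none of these was called. The call of Slc16a3 was lost by limma-voom (0.107), with no filter (0.111) and on leaving out 13 of 16 libraries (0.0511 to 0.109). That of Slc2a1 was lost by limma-voom (0.0706), with GC correction (0.0532) and on leaving out 12 of 16 libraries (0.0509 to 0.106). Those of Gpi1 and Gapdh against E16 were lost on leaving out 10 of 16 libraries each, Pgam1 on 5, P4ha1 on 4 and Pfkp and Tpi1 on 1, while Aldoa, Eno1 and Egln3 lost theirs on none. Against P14 every call was lost on leaving out some of the 16 libraries. There Aldoa lost its call on 4, Pfkp, Tpi1, Pkm and Egln3 on 9 each, Eno1 on 10, Gpi1 on 11 and Hk2 on 12.

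The number of calls moved with single libraries in both directions. In fits of only the groups compared 0 members were called against P14 (lowest adjusted p of the 8 genes 0.0892) and 6 against E16. On leaving out 1 library the number called against P14 was 0 without P14_ME replicate 3 or 4, 8wk_ME replicate 2 or 8wk_Control replicate 2. It was 1 without P14_ME replicate 2, P14_Control replicate 3 or 4 or 8wk_ME replicate 1, 2 without 8wk_ME replicate 3 and 4 without P14_Control replicate 2. It was 6 to 9 without P14_ME replicate 1, P14_Control replicate 1 or 8wk_Control replicate 1, 3 or 4, and 12 without 8wk_ME replicate 4. The number called against E16 was 3 without 8wk_Control replicate 2 and 5 without E16_Control replicate 1 or 2. It was 6 without 8wk_ME replicate 1 or 8wk_Control replicate 3, and 7 without E16_ME replicate 1, 2 or 4 or 8wk_ME replicate 2. The median difference of the 33 members moved less, from 0.58 to 0.85 log2 against P14 and from 0.61 to 0.88 log2 against E16 over the 16 libraries left out in turn. Without the 3 libraries that stand apart, 16 members were called higher against P14 and 14 against E16.

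**Figure D3:**
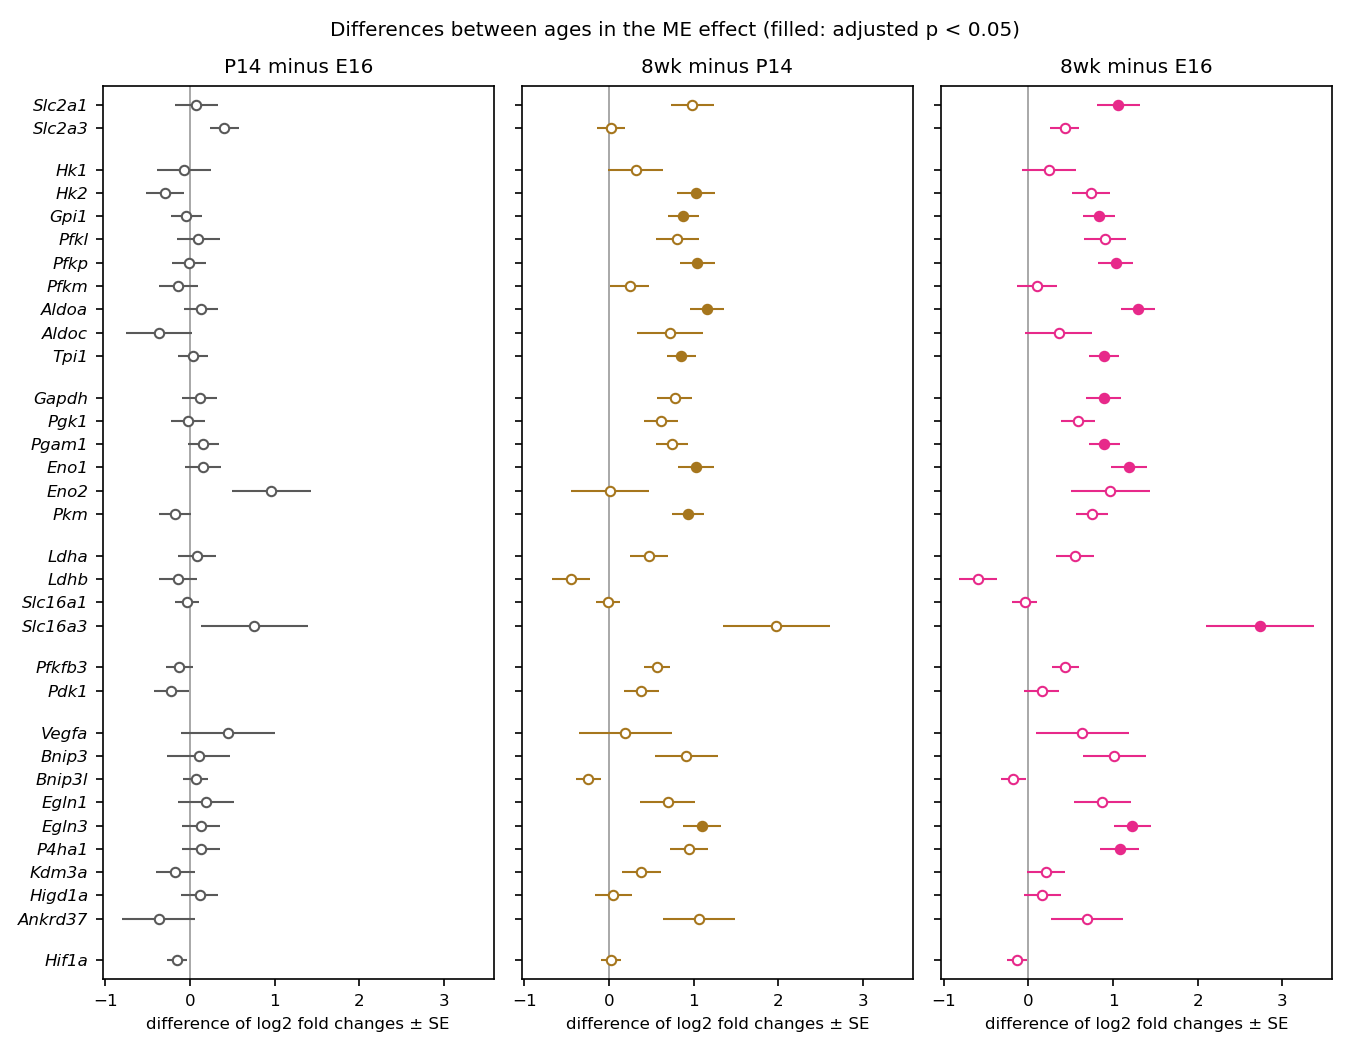
Difference between 2 ages in the log2 fold change of ME against control, with its SE (x axis), for the 33 members (y axis, grouped by role), with filled points for adjusted p under 0.05. Points for P14 minus E16 scatter around 0 and none is filled, while 8 filled points for 8wk minus P14 and 11 for 8wk minus E16 lie to the right of 0, Slc16a3 at 2.74.

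The 8wk_ME libraries had the most widely spread enzyme sums, with an SD of 2291 CPM against 744 to 1569 CPM in the other groups. Replicate 1 was the highest of the 4 for 24 of the 33 members and replicate 4 the lowest for 19. In E16_Control and in P14_ME replicate 4 was the lowest for 20. The 10 monocyte and macrophage markers summed to 327, 224, 239 and 46.1 CPM in 8wk_ME and to 91.5, 18.0, 15.1 and 22.3 CPM in 8wk_Control, and 7 of the 10 rose. Cd14, a monocyte receptor, averaged 71.1 CPM in 8wk_ME and 1.89 CPM in 8wk_Control. The 10 neutrophil markers summed to 1504, 1313, 927 and 41.6 CPM in 8wk_ME and to 878, 34.7, 19.5 and 24.3 CPM in 8wk_Control, and none was called. Mast cell and basophil markers went the other way, at 96.0, 102, 114 and 179 CPM in 8wk_ME replicates 1 to 4. Most of these sums was Gata2, at 66.3, 70.3, 67.6 and 94.3 CPM. B-lineage markers in 8wk_ME summed to 96.3, 97.0, 76.6 and 101 CPM, of which Cd79b held 38.8 to 48.4 CPM. In 8wk_Control replicate 1 had the highest monocyte and neutrophil sums, while the enzyme sum was highest in replicate 4 (12786 CPM). The part of any of these cells in the rise of the members at 8wk was not tested. With replicate 4 of 8wk_ME left out 17 members rose and 3 fell, and with replicate 1 left out 10 rose and 4 fell. In bulk RNA, more cells of a type and more RNA per cell cannot be told apart.

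Marker sums at the younger ages differed in part from those at 8wk. At E16 the monocyte and macrophage markers summed to 289, 330, 294 and 55.9 CPM in ME and to 167 to 236 CPM in control, and none of the 10 was called. Neutrophil markers there summed to 44.4 to 1059 CPM in ME and to 1126 to 6006 CPM in control, with 1 of 10 lower, and megakaryocyte markers to 84.7 to 99.9 CPM in ME and 207 to 541 CPM in control, with 5 of 8 lower. At P14 both myeloid sums were low, at 14.4 to 47.5 CPM for monocyte and macrophage and 4.70 to 47.3 CPM for neutrophil markers, with C1qa and C1qb at 0 in the controls. Monocyte and macrophage markers averaged 32.5 CPM in P14_ME and 19.1 CPM in P14_Control, with 3 of 10 higher and 0 lower, the same direction as at 8wk. In P14_ME replicates 1 to 4 they summed to 45.3, 47.5, 18.0 and 19.0 CPM. Replicates 3 and 4 lay inside the control range of 14.4 to 24.6 CPM. B-lineage markers at P14 summed to 331, 158, 49.6 and 39.96 CPM in ME replicates 1 to 4 and to 40.7 to 45.5 CPM in control. Of these markers 7 of 8 were higher, although ME replicate 4 had a sum below every control. The part of these marker differences in the falls was not tested.

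**Figure D4:**
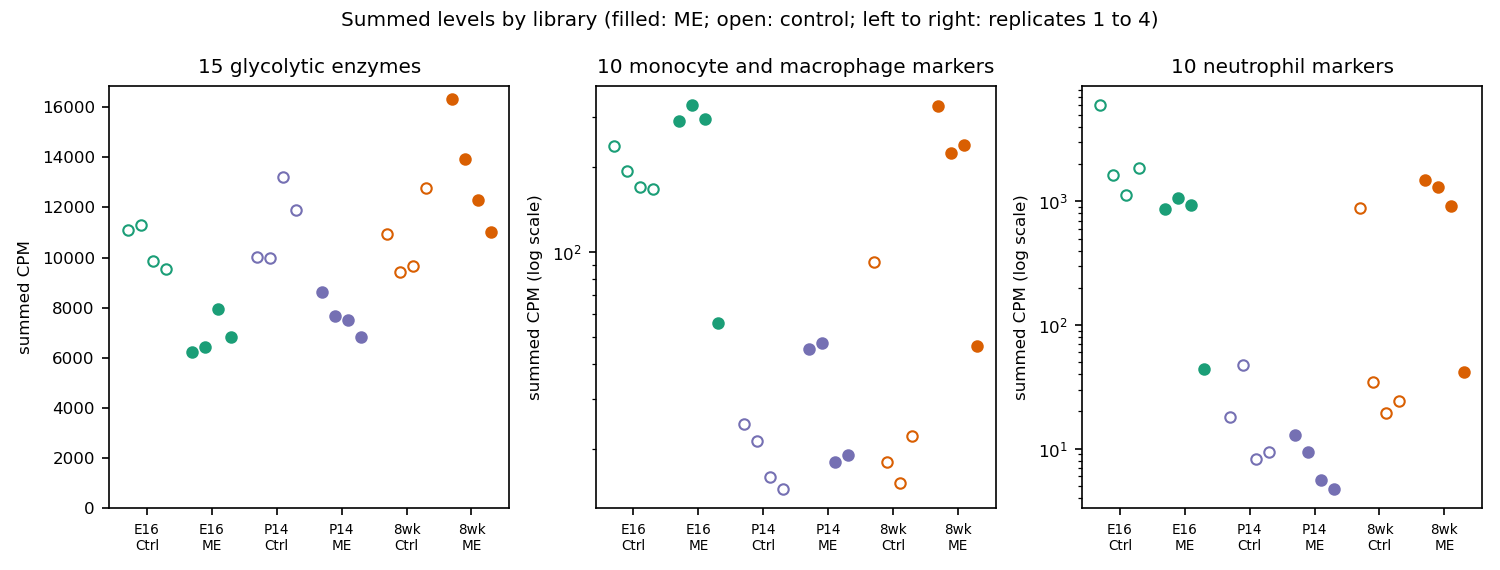
Summed CPM (y axes) of the 15 glycolytic enzyme genes (linear scale), of 10 monocyte and macrophage markers and of 10 neutrophil markers (log scales) in every library of the 6 groups (x axis), with open points for control and filled points for ME. The enzyme sums of ME lie below control at E16 and P14 and reach from 11025 to 16336 CPM at 8wk, where replicate 4 has the lowest enzyme sum and the lowest marker sums of its group.

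Levels also changed with age in the control cells. Between E16 and P14 6 members rose and 1 fell, against 7.61% of all genes higher and 7.51% lower. Aldoc rose most, from a mean of 7.13 ± 1.54 CPM to 41.3 ± 6.01 CPM (SD, n = 4), a change of 2.53 ± 0.29 log2 (edgeR adjusted p = 2.83e-06). Ldhb rose from 45.0 ± 5.19 to 91.9 ± 14.8 CPM (SD, n = 4; 1.03 ± 0.16 log2, edgeR adjusted p = 8.95e-05), and Pfkm, the muscle-type phosphofructokinase, by 0.69 ± 0.16 log2 (edgeR adjusted p = 0.00538). Slc2a1 fell by 0.69 ± 0.18 log2 (edgeR adjusted p = 0.0106). The smaller rises of Tpi1 (0.39 ± 0.12 log2), Pkm (0.43 ± 0.13 log2) and Pdk1 (0.45 ± 0.15 log2), with edgeR adjusted p of 0.0334, 0.0331 and 0.0410, each lost their call (0.0527 to 0.163) without E16_Control replicate 3 or 4 and without 2 of the P14 controls, for Tpi1 and Pkm replicates 3 and 4 and for Pdk1 replicates 1 and 2. Tpi1 lost it without E16_Control replicate 1 as well, Pdk1 with GC correction (0.0614) and in a fit of these 2 groups alone (0.106), and without E16_Control replicate 3 or 4 the number of members called was 4.

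Between P14 and 8wk 4 members rose (12.1%) and 1 fell (3.03%), against 7.01% of all genes higher and 5.58% lower. The calls are few and not far from the all-gene shares, and 1 of the 5 was kept in every setting run. They describe single genes and not the members as a set. Bnip3 rose from 25.1 ± 3.89 to 57.6 ± 14.5 CPM (SD, n = 4), by 1.20 ± 0.26 log2 (edgeR adjusted p = 0.00618), and Bnip3l by 0.47 ± 0.10 log2 (edgeR adjusted p = 0.00600; 0.0698 without 8wk_Control replicate 3). Slc16a3 rose by 1.41 ± 0.45 log2 (edgeR adjusted p = 0.0458), a call lost (0.0563 to 0.124) on leaving out any control of the 2 ages but 8wk_Control replicate 2. Higd1a rose by 0.49 ± 0.16 log2 (edgeR adjusted p = 0.0415), lost (0.0522 to 0.227) without any of 6 of the 8 libraries, all but P14_Control replicate 4 and 8wk_Control replicate 1. Pfkfb3 fell by 0.40 ± 0.11 log2 (edgeR adjusted p = 0.0202; 0.0549 and 0.0885 without P14_Control replicate 3 or 4). Calls also ended with limma-voom and with no filter for Slc16a3 (0.0647 and 0.123) and Higd1a (0.0511 and 0.0612), and for Higd1a with the replicate block (0.0524). No filter ended that of Pfkfb3 (0.0647), and a fit of only these 2 groups ended those of Pfkfb3 (0.0638), Bnip3l (0.0621) and Higd1a (0.107). The number called was 2 or 3 without any of the 4 P14 controls and 2 without 8wk_Control replicate 3.

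Between E16 and 8wk, where the tissue differs too, 12 members rose and 3 fell, against 12.5% of all genes higher and 10.8% lower. The rises were led by Aldoc (2.83 ± 0.29 log2, edgeR adjusted p = 4.90e-07), Bnip3 (1.41 ± 0.27 log2, edgeR adjusted p = 4.94e-04) and Ankrd37 (1.17 ± 0.30 log2, edgeR adjusted p = 0.00688). Ldhb (0.99 ± 0.16 log2), Pdk1 (0.76 ± 0.15 log2) and P4ha1 (0.67 ± 0.16 log2) rose as well (edgeR adjusted p = 9.79e-05, 5.79e-04 and 0.00361). Slc2a1 fell by 0.86 ± 0.18 log2 (edgeR adjusted p = 0.00119), Hk2 by 0.68 ± 0.16 log2 (edgeR adjusted p = 0.00303) and Pfkfb3 by 0.43 ± 0.11 log2. Slc2a3 (0.41 ± 0.12 log2), Pfkp (0.45 ± 0.14 log2), Tpi1 (0.48 ± 0.12 log2), Pgk1 (0.52 ± 0.14 log2), Bnip3l (0.57 ± 0.10 log2) and Higd1a (0.49 ± 0.16 log2) made up the rest. Of these Slc2a3 (0.0650 and 0.0710 without E16_Control replicate 2 or 8wk_Control replicate 4), Pfkp (0.0577 to 0.114 without E16_Control replicate 3 or 4 or 8wk_Control replicate 4) and Higd1a (0.0508 to 0.105) depended on single libraries. A fit of only these 2 groups ended the call of Slc2a3 (0.0558), and GC correction that of Pfkp (0.0505). For Higd1a the libraries were E16_Control replicates 1, 2 and 3 and 8wk_Control replicates 3 and 4. The comparisons of ages share control libraries with each other and with those of ME against control. The 9 erythroid markers found summed to 741 to 1230 CPM in E16_Control, to 183 to 285 CPM in P14_Control and to 114 to 215 CPM in 8wk_Control, and their part in the age differences was not tested.

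Within families the mix of isoforms shifted, judged by CPM per kb of merged exons. Slc2a3 made up 34.8 ± 3.04% of the 2 glucose transporters in E16_Control and 22.9 ± 2.32% in E16_ME (SD, n = 4), and 56.5 ± 1.40% in 8wk_Control and 33.4 ± 9.10% in 8wk_ME. With the length of the longest transcript the same 4 shares were 36.5, 24.3, 58.3 and 35.0%. Aldoc made up 0.494 ± 0.121% of aldolase in E16_Control and 3.72 ± 0.477% in 8wk_Control, and 6.14 ± 0.654% in 8wk_ME, so that Aldoa was the main form throughout. Slc16a3 made up 9.24 ± 3.90% of the 2 monocarboxylate transporters in 8wk_Control and 39.7 ± 16.7% in 8wk_ME, where Slc16a1 fell and Slc16a3 rose. Among the hexokinases Hk3, a myeloid form, made up 26.9 ± 9.32% in 8wk_Control and 46.3 ± 5.26% in 8wk_ME, and its own change of 1.25 ± 0.60 log2 was not called.

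**Figure D5:**
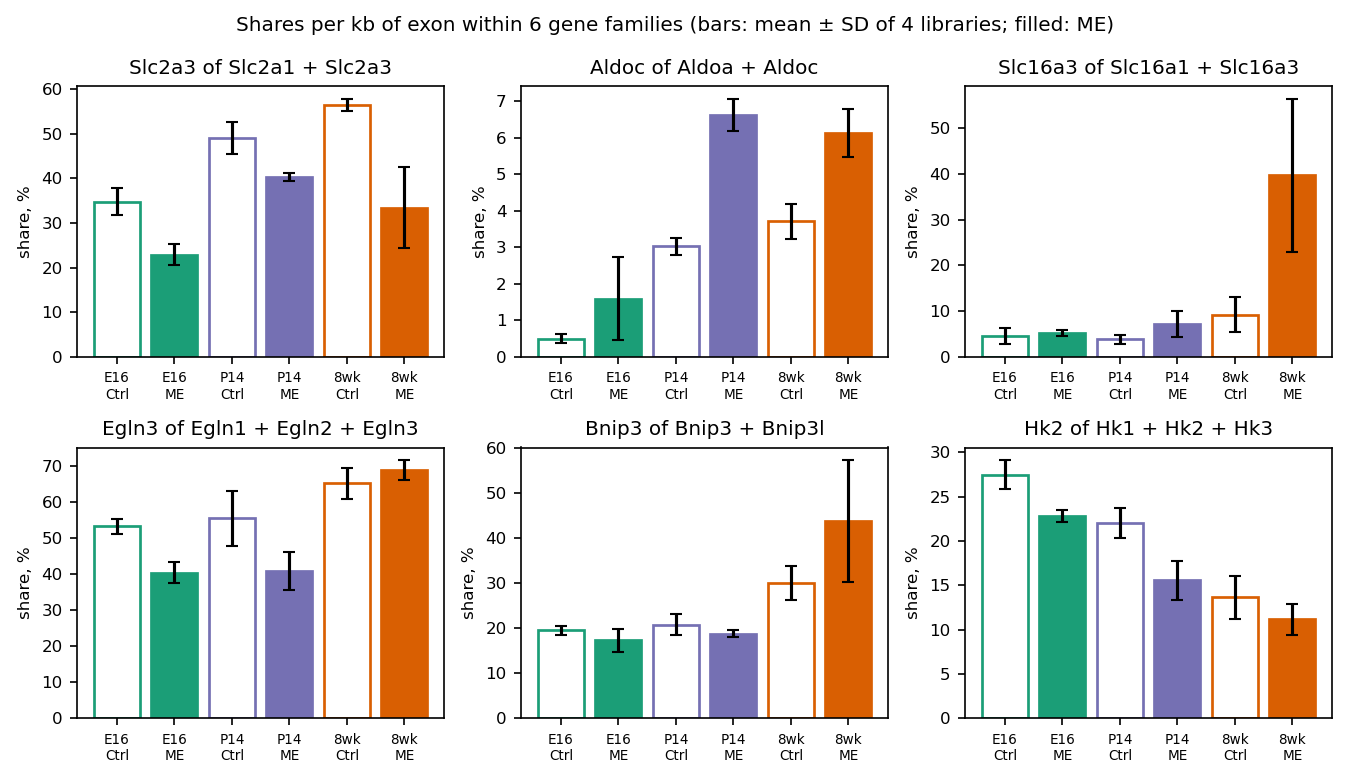
Share of 1 gene in its family (y axis, percent of CPM per kb of merged exons, from 0) in the 6 groups (x axis), as the mean with the SD of 4 libraries, open bars for control and filled bars for ME. The share of Slc2a3 is lower in ME at each age, and that of Slc16a3 reaches 39.7% in 8wk_ME with a wide SD.

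Related pathways were described from lists chosen with the members. Their counts stand beside shares over all genes of 13.3% higher and 8.47% lower at E16, 12.7% and 9.35% at P14 and 14.2% and 14.3% at 8wk. In the pentose phosphate pathway, which draws on glucose phosphate for NADPH and ribose, 6 of 10 genes fell and 1 rose at E16, 4 fell and 1 rose at P14, and 1 fell and 1 rose at 8wk, a share of 10.0% each way that is under that of all genes. G6pdx, its entry enzyme, fell by 0.69 ± 0.14 log2 at E16 and by 0.63 ± 0.14 log2 at P14. H6pd, the form of the endoplasmic reticulum, rose at each age, by 1.06 ± 0.18, 1.26 ± 0.18 and 1.45 ± 0.18 log2. Tkt, transketolase, fell by 0.52 ± 0.12 log2 at E16, and Prps1, which makes the ribose donor of nucleotides, by 0.49 ± 0.13 log2 at P14 and 0.76 ± 0.13 log2 at 8wk. Of 13 genes that carry pyruvate into the mitochondrion, process it there or regulate that step, 5 fell and 1 rose at E16, 6 fell at P14 and 4 fell at 8wk. The list includes the inhibitory kinases Pdk2, Pdk3 and Pdk4, so a rise or fall does not mean the same for every gene in it. Dlat, a subunit of pyruvate dehydrogenase, fell at all 3 ages, by 0.49 ± 0.08, 0.35 ± 0.08 and 0.46 ± 0.08 log2, and Pdha1, its catalytic subunit, fell at E16 (0.45 ± 0.07 log2) and P14 (0.45 ± 0.07 log2). Pdhx, which anchors the complex, fell at E16 (0.36 ± 0.08 log2) and P14 (0.42 ± 0.08 log2), and Pdhb (0.29 ± 0.08 log2) and the phosphatase Pdp1 (0.64 ± 0.17 log2) fell at 8wk.

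Of 29 other HIF targets tested, out of 30, 5 rose and 3 fell at E16, 5 rose and 5 fell at P14, and 13 rose and 1 fell at 8wk. The E16 shares, 17.2% higher and 10.3% lower, were near those of all genes, and 44.8% rose at 8wk. Their medians were -0.04, 0.01 and 0.48 log2. Mxi1, a repressor of the MYC network, rose at each age by 1.92 ± 0.25, 1.89 ± 0.25 and 2.06 ± 0.25 log2. Siah2, a ubiquitin ligase that acts on the prolyl hydroxylases, rose by 3.77 ± 0.69 log2 at 8wk, and Cited2, a HIF-induced competitor of HIF, by 3.11 ± 0.57 log2 at P14. Ndrg1 rose at 8wk by 0.86 ± 0.17 log2 and Ccng2, an atypical cyclin, at E16 by 0.68 ± 0.14 log2. Ak4, an adenylate kinase, fell by 0.62 ± 0.12 log2 at E16 and 0.66 ± 0.12 log2 at P14 and rose by 0.42 ± 0.12 log2 at 8wk. Among 11 HIF subunit and oxygen-sensing genes, 1 rose at E16 (Vhl, the ubiquitin ligase subunit, by 0.27 ± 0.09 log2), 0 changed at P14 by edgeR (2 had an unadjusted p under 0.05), and 1 rose and 2 fell at 8wk. Those that fell at 8wk were Cul2 (0.50 ± 0.11 log2) and Rbx1 (0.49 ± 0.12 log2), partners of VHL, and the one that rose, Arnt2, averaged 0.286 CPM. The share of this list that rose was 9.09% at E16 and at 8wk, under that of all genes. The share that fell at 8wk was 18.2%, near that of all genes, so these are single genes and do not describe the list.

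Of 12 tested genes of glycogen metabolism and gluconeogenesis, out of 15, 2 rose at E16, 2 rose and 2 fell at P14, and 7 rose at 8wk. The share that rose was 16.7% at E16 and P14, near that of all genes, and 58.3% at 8wk. Fbp1, the fructose bisphosphatase of gluconeogenesis, rose by 1.73 ± 0.39, 1.23 ± 0.38 and 1.86 ± 0.38 log2, and Pygm, a glycogen phosphorylase, by 1.51 ± 0.32, 1.44 ± 0.32 and 0.92 ± 0.32 log2. At 8wk Gbe1, the branching enzyme, rose by 0.57 ± 0.11 log2 and Gys1, glycogen synthase, by 0.64 ± 0.19 log2. At P14 the phosphoglucomutases Pgm1 and Pgm2 fell by 0.46 ± 0.11 and 0.29 ± 0.07 log2. Of 21 tested other isozymes and regulators of glycolysis, out of 24, 3 rose at E16, 1 rose and 2 fell at P14, and 3 rose and 1 fell at 8wk. The share that rose was 14.3% at E16 and 8wk, close to all genes, so the genes named here describe single genes and not the list. Slc2a6, a transporter of myeloid cells, rose at 8wk by 3.47 ± 0.64 log2, with a mean of 43.5 CPM in ME and 3.90 CPM in control. Minpp1, a phosphatase, rose by 0.87 ± 0.21 log2 at E16 and 0.67 ± 0.21 log2 at P14. At E16 the transporters Slc16a7 (0.54 ± 0.14 log2) and Slc2a8 (0.69 ± 0.19 log2) rose. At P14 Tigar, a fructose bisphosphatase, fell by 0.38 ± 0.12 log2 and Pfkfb1 by 0.44 ± 0.16 log2. At 8wk Eno3, the muscle enolase, rose by 0.84 ± 0.24 log2 and Bpgm, of the red cell shunt, fell by 0.45 ± 0.12 log2.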

How the data were processed

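Members and gene lists were chosen with earlier results of these data known. The authors deposited raw counts per gene. Per the submitters' processing notes, STAR 2.7.9a, featureCounts 2.0.3 and the GRCm38 build were used; annotation release and strand setting are not given in the sources used here. Counts came as 55774 lines, 168 identifiers being repeated with the same counts; Aldoa was read from the more abundant of its 2 identifiers. No per-sample column was left unused.

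Genes were kept by filterByExpr (minimum count 10; 18931 genes) and scaled by TMM. A single fit of all 24 libraries, with 1 mean per group, was made in edgeR 4.0.16 (R 4.3.3; quasi-likelihood, robust), with Benjamini-Hochberg adjustment within each of 9 comparisons. SE is the log2 change divided by the root of F. CPM values use TMM library sizes. The procedure was tested on simulated data. Every member is named; per comparison the 8 called members of largest change at 5 CPM or more are given in full, the first 4 of ME comparisons in every library, with Hif1a and Pgk1 always. From other lists up to 3 called genes of smallest p are named. Others were chosen after their values were seen.

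Same-numbered P14 libraries deviated together weakly (correlations 0.137 to 0.232), and those at E16 (-0.043 to 0.001) and 8wk (-0.088 to 0.118) did not. P14_ME replicates 2 and 3 correlated best with P14_Control replicates 1 and 4, not with their own numbers. The main fit used no pairs. As an alternative, the replicate block was added to the fit of all libraries, with an effect per number shared by all ages. It was also added to a fit of the P14 libraries alone. The labels do not say that the numbers are pairs. Alternatives were DESeq2 1.42.0, its size factors, library size only, limma-voom 3.58.1, 2 other filters, GC correction, a replicate block, fits of only the groups compared, and left-out libraries. Depth was 33.9 to 69.3 M counts, and members had at least 21 counts in every library. Promoters and exon lengths came from RefSeq (GRCm38.p6) and GENCODE M21 (GRCm38). Protein sequences were not analysed here.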

Additional observations from a re-analysis of the deposited data

Results flagged for a closer look

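Among 198 combinations of member and group, 11 held a library whose gap to its nearest neighbour took more of the group's range than Dixon's critical value at 95% allows; chance gives about 1 in 20. In E16_ME replicate 3 stood high for Slc2a1 (157.9 CPM against 141.3 to 143.8), Gpi1 (605.8 against 458.1 to 479.9), Tpi1 (495.7 against 431.5 to 435.9) and Gapdh (1957 against 1435 to 1468). Aldoc was at 27.82 CPM in E16_ME replicate 4 and at 9.229 to 10.39 CPM in the others. Of the 8wk controls, replicate 4 stood high for Slc2a1 (123.3 against 86.69 to 92.59) and Pfkp (230.7 against 171.8 to 175.8), and replicate 1 for Pdk1 (340.4 against 240.7 to 242.8). Tpi1 was at 676.2 CPM in P14_ME replicate 1 (580.6 to 588.2 in the others) and P4ha1 at 59.61 CPM in P14_ME replicate 2 (56.94 to 57.38). Slc16a1 was low, at 427.6 CPM, in E16_Control replicate 1 (476.1 to 482.5).

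ME effects that differed between ages, by the interaction test, were higher at 8wk in every case. Against P14 the differences in log2 were 1.03 for Hk2, 0.88 for Gpi1, 1.04 for Pfkp, 1.16 for Aldoa, 0.85 for Tpi1, 1.03 for Eno1, 0.93 for Pkm and 1.10 for Egln3. Against E16 they were 1.06 for Slc2a1, 0.84 for Gpi1, 1.03 for Pfkp, 1.29 for Aldoa, 0.90 for Tpi1, 0.89 for Gapdh, 0.90 for Pgam1, 1.19 for Eno1, 2.74 for Slc16a3, 1.23 for Egln3 and 1.08 for P4ha1.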

How the results depend on the processing

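No called change of a member reversed under any alternative run. Members called were 16 at E16, 15 at P14, 18 at 8wk, 8 and 11 for the differences of 8wk from P14 and E16, and 7, 5 and 15 between control ages. Beyond 1.5 times these moved only as follows. Fitting only the groups compared gave 10 at 8wk, 0 and 6 for the differences, and 2 between the P14 and 8wk controls, which limma-voom put at 3 and no filter at 2. For 8wk minus P14, DESeq2 gave 14 and leaving out the 3 libraries that stand apart gave 16. With each library left out in turn the counts ran from 11 to 16 at E16, 13 to 17 at P14, 12 to 20 at 8wk, 0 to 12 and 3 to 16 for the differences, 4 to 7, 2 to 6 and 12 to 16 between control ages. The replicate block gave 18 at E16, 16 at P14 (18 with P14 libraries alone), 18 at 8wk, 7 and 12 for the differences, and 7, 4 and 16 between control ages. It ended the calls of Eno1 at 8wk (edgeR adjusted p = 0.0537), of Hk2 for 8wk minus P14 (0.0665) and of Higd1a between the P14 and 8wk controls (0.0524). Over all genes, 5392 calls at 8wk became 2907 with 8wk libraries only. The 57 calls for 8wk minus P14 became 298 by DESeq2, 1009 without the 3 libraries and 0 with only the groups compared. The 161 for 8wk minus E16 became 603 by DESeq2, 107 without a filter, 250 at 1 CPM in 4 libraries, 357 with the replicate block, 1362 without the 3 libraries and 55 with only the groups compared. The 4 for P14 minus E16 became 29 by DESeq2 and 10 without the 3 libraries, and the 2384 between the P14 and 8wk controls became 1483 without a filter, 3605 without the 3 libraries and 1092 with only the groups compared. Scaling by library size alone moved the higher share of calls from 61.1% to 74.6% at E16, from 57.5% to 70.5% at P14 and from 55.7% to 43.2% between the P14 and 8wk controls, with all-gene medians of 0.11 log2 at E16 and P14; the members then numbered 3 higher and 11 lower at E16. The cause of these shifts was not tested. Of 132 family shares, 83 moved by over 1 SD with the longest transcript.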
